A study of Rattus norvegicus with 12 samples.

Results

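Expression around static implants of an alloy was compared with expression around static implants of titanium in the rat upper jaw, gene by gene. The alloy is Zr58Cu25Al14Nb3, made of zirconium, copper, aluminium and niobium and called Nb3 alloy below, and the titanium is labelled cpTi. Every gene that reached 1 FPKM (fragments per kilobase of gene, scaled by depth) in at least 3 of the 12 libraries of the series was taken, which gave 15268 of 33801 genes in the deposited table. The comparison rests on 6 of the 12 libraries, 3 with the Nb3 alloy and 3 with cpTi, none of them loaded. All 6 came from wild-type rats, from bone cut to a diameter of 4 mm around a mini-implant at the site of the upper first molar. The other 6 libraries came from implants of the same materials that were loaded cyclically for 2 weeks, and they entered the fit to estimate the spread. The labels do not state how long the static implants had been in place, nor whether the 3 libraries of a group stem from different rats. A p-value therefore measures only the spread between these samples, which may be technical.

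An implant heals in when osteoblasts lay down a type I collagen matrix on its surface, mineralise it and become buried in it as osteocytes, while osteoclasts resorb older bone. Osteocytes steer both sides through sclerostin, a brake on Wnt signalling, and through RANKL and its decoy receptor osteoprotegerin. A core of jaw bone also carries marrow, vessels, nerve and, close to tooth sockets, ligament, and the level of a gene in bulk RNA mixes all of them. Fewer cells of a type and less RNA per cell cannot be told apart in such samples.

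No gene of the 15268 passed the test between the materials (limma, adjusted p under 0.05), so 0% were called, and the smallest adjusted p was 0.247. At an unadjusted p under 0.05 limma gave 470 genes, fewer than the 763.4 that this threshold gives by itself, and limma-voom on recovered reads called 0 genes with 349 at that p. Among the 470, 150 (0.982% of genes tested) were higher beside the Nb3 alloy and 320 (2.1%) were lower. The 3 Nb3-alloy libraries all lay above the 3 cpTi libraries for 439 genes (2.88%) and all below them for 674 genes (4.41%). The median difference over all genes, Nb3 alloy minus cpTi on the log2(FPKM + 1) scale, was 0.00.

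The intervals show how precisely each gene was measured. They are not adjusted for the number of genes, so larger differences than their width could go without a call. Cnn1, with a log2 difference of -1.57, was not called although its interval left out 0. The 95% interval of a gene reached a median of 0.45 either side of its difference on the log2 scale (quartiles 0.34 and 0.64). For 12443 genes (81.5%) the whole interval lay within 1 on the log2 scale of no difference. The estimate itself was 1 or more above 0 for 71 genes and 1 or more below 0 for 181 genes. Genes of that size whose groups did not overlap numbered 19 higher and 92 lower, and the lower ones hold the gene groups described first below.

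Reads on genes amounted to 14.7 ± 0.643 M in the Nb3-alloy group and 14.0 ± 1.03 M in the cpTi group (SD, n = 3 each; exact permutation test, two-sided p = 0.5, where 0.1 is the smallest that 3 against 3 allows). Across the genes tested, libraries of different materials correlated at 0.936 to 0.969, and libraries of the same material at 0.948 to 0.965. Genes of bone were present as labelled, with Col1a1 between 1373 and 3878 FPKM and Bglap between 1078 and 2207 FPKM. Of the tooth list, Dspp and Klk4, made in dentin and enamel, were at 0 in all 6 libraries. One feature separated the static cpTi libraries from each other and was also found in loaded libraries. The 6 genes of nasal and gland secretions, Obp1f, Obp2a, Obp2b, Lpal2, Bpifa1 and Pigr, which were chosen after their values were seen, took 0.0055%, 0.0931% and 1.22% of reads in cpTi replicates 1, 2 and 3. In the Nb3-alloy replicates they took 0.00099%, 0.00062% and 0.0038%. Among the loaded libraries, which enter the fit and the interaction, they took 1.32% in cpTi replicate 1, the highest share of the 12, and 0.0440% and 0.0392% in Nb3-alloy replicates 2 and 3.

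Contractile genes of smooth muscle, the muscle layer of vessel walls, were lower beside the Nb3 alloy, and Cnn1 had the smallest p of all genes. Cnn1 (calponin, an actin-binding protein of smooth muscle; ENSRNOG00000027736, chromosome 8, 20632338 to 20641098 in the table's own coordinates) was measured at 0.0803, 0.435 and 0.265 FPKM in Nb3-alloy replicates 1, 2 and 3, and at 2.20, 2.95 and 3.06 FPKM in the cpTi replicates. Every cpTi library exceeded every Nb3-alloy library, with group means of 0.260 ± 0.177 and 2.74 ± 0.467 FPKM (SD, n = 3). The log2 difference was -1.57 (SE 0.22, 95% interval -2.06 to -1.08), with an unadjusted p of 1.94e-05 and an adjusted p of 0.247 by limma.

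Acta2, the smooth muscle actin, stood at 14.4, 20.1 and 13.2 FPKM beside the Nb3 alloy and at 48.4, 81.3 and 45.8 FPKM beside cpTi. Tagln (transgelin, another actin-binding protein) stood at 16, 16.3 and 17.8 FPKM against 47.2, 73 and 55.8 FPKM. Myh11, the smooth muscle myosin heavy chain, stood at 4.78, 4.37 and 4.37 FPKM against 11.8, 17.1 and 12.02 FPKM. In these 3 genes too no library of one material reached the range of the other, and cpTi replicate 2 was the highest library. Absence of overlap was a condition for naming Cnn1, Acta2 and Tagln, and Myh11 was named after its values were seen. Their log2 differences were -1.79, -1.73 and -1.39, and the adjusted p by limma was 0.656 for Acta2, 0.634 for Tagln and 1 for Myh11.

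Not every gene of the vessel wall stood apart. Of 18 smooth muscle and pericyte genes tested, 16 were below 0 and 2 above, none was called, and the median was -0.48 against 0.00 over all genes. Lower without overlap were 6, against 4.41% of all genes. The list deviated from the mean of the 6 libraries by 0.0017, -0.46 and -0.46 in the Nb3-alloy replicates. In the cpTi replicates it deviated by 0.02, 0.38 and 0.26, so that replicate 1 of the materials was level. Actg2, an actin of visceral and vascular muscle, was at 0.327, 0.253 and 0 FPKM against 2.61, 1.77 and 3.61 FPKM. Myl9, a light chain that many non-muscle cells also make, had the same level on both sides within its spread (72.7 ± 7.62 and 74.0 ± 7.59 FPKM, SD, n = 3). The pericyte gene Rgs5 overlapped between groups, at 83.8, 65.5 and 39.4 FPKM against 65.3, 132 and 85.3 FPKM. Endothelial genes, which line the same vessels, had a median of -0.14 over 19 genes, none without overlap, and 18 of the 19 intervals stayed within 1 on the log2 scale. Cav1 (caveolin, abundant in endothelium, smooth muscle and fat) was lower without overlap at 11.6, 8.67 and 6.69 FPKM against 13.4, 22.8 and 20.7 FPKM (log2 difference -0.997).

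Elastin followed the contractile genes. Eln (ENSRNOG00000001469, chromosome 12, 21968544 to 22011928), which encodes the core of elastic fibres in vessel walls and ligament, was measured at 2.65, 1.37 and 1.39 FPKM beside the Nb3 alloy. The cpTi replicates had 6.77, 9.05 and 7.71 FPKM, each above all of the Nb3-alloy libraries. The log2 difference was -1.68 (95% interval -2.29 to -1.07), the second smallest p of a gene on any of the lists after Cnn1, with an adjusted p of 0.313 by limma. Mfap4, a microfibril protein that binds elastin, stood at 1.01, 0.763 and 0.840 FPKM against 5.80, 13.3 and 16.02 FPKM. Mgp, the matrix Gla protein that keeps vessel walls and cartilage from calcifying, stood at 42.9, 33.0 and 20.2 FPKM against 91.0, 116 and 110 FPKM. Neither pair of groups overlapped, and the log2 differences were -2.66 for Mfap4 and -1.75 for Mgp. Loxl1, an oxidase that crosslinks elastin, was at 17.8 ± 1.72 FPKM against 31.9 ± 11.6 FPKM (SD, n = 3; log2 difference -0.75).

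**Figure D1:**
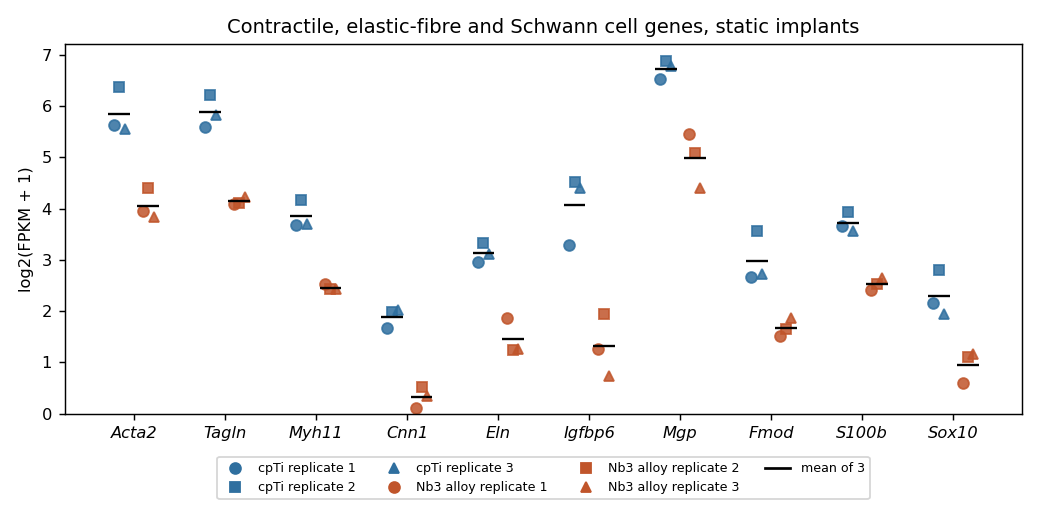
Level of 10 contractile, elastic-fibre and Schwann cell genes in the 6 static libraries, as log2(FPKM + 1) on the vertical axis. Each point is a library, with blue for cpTi and orange for the Nb3 alloy, marker shape for the replicate number and a black bar for the mean of 3. In all 10 genes the 3 blue points lie above the 3 orange points, but no gene passed the test across all genes. Most were named because their groups did not overlap, or after their values were seen, so this order is not a result. The smooth muscle and pericyte genes Rgs5, which overlapped, and Myl9, which had the same level, are not drawn.

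Igfbp6, which encodes a secreted protein that binds insulin-like growth factor II, had the largest log2 difference of the 16 genes chosen by smallest p, 8 in each direction. It was at 1.41, 2.85 and 0.664 FPKM beside the Nb3 alloy and at 8.75, 22.03 and 20.3 FPKM beside cpTi (log2 difference -2.76, SE 0.53, adjusted p = 0.636 by limma). Of 11 insulin-like growth factors and binding proteins, 10 were below 0 with a median of -0.47 (-0.24 without cpTi replicate 2). Lower without overlap were 3, against 4.41% of all genes. Tcim, an intracellular regulator linked to Wnt signalling, stood at 1.45, 2.81 and 1.23 FPKM against 3.64, 4.96 and 7.46 FPKM, again with no overlap (log2 difference -1.16).

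Fibrous connective tissue genes pointed the same way. Of 18 small proteoglycan and elastic fibre genes 17 were below 0 (median -0.66), and of 10 periodontal ligament and tendon genes 9 were (median -0.68). Neither list had a called member, while 4 and 3 members were lower without overlap, against 4.41% of all genes. In the proteoglycan and elastic fibre list Nb3-alloy replicate 1 deviated from the mean of the 6 libraries by 0.06 and cpTi replicate 1 by -0.09, the other order. Replicates 2 and 3 stood at -0.36 and -0.51 beside the Nb3 alloy and at 0.60 and 0.47 beside cpTi. Fmod (fibromodulin, a proteoglycan that spaces collagen fibrils and is on both lists) was at 1.87, 2.15 and 2.64 FPKM against 5.31, 10.9 and 5.62 FPKM. Thbs2, a matrix thrombospondin of fibroblasts, was at 2.07, 0.961 and 1.82 FPKM against 6.23, 32.5 and 5.37 FPKM, so that cpTi replicate 2 alone set most of its group mean. Tnmd (tenomodulin, a marker of tendon and ligament cells) stayed below 1 FPKM in 5 of the 6 libraries and reached 2.15 FPKM in cpTi replicate 2. Over the whole ligament list, cpTi replicate 2 deviated from the mean of the 6 libraries by 0.96 and the others by -0.45 to 0.10, and without it the list's median was -0.39. Ccn3, a matricellular protein, was at 0.761, 0.485 and 1.08 FPKM against 2.46, 2.98 and 6.55 FPKM.

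Collagen genes were not uniform. Of 21 collagen chains 14 were below 0 (median -0.34), with 3 lower without overlap (4.41% over all genes). That median rested on cpTi replicate 2, without which it was 0.01. The fibril-associated Col14a1 stood at 0.862, 0.746 and 0.383 FPKM against 1.91, 3.23 and 2.24 FPKM, and the vessel and cornea chain Col8a1 at 2.05, 0.740 and 1.03 FPKM against 2.22, 12.7 and 4.10 FPKM. Col1a1, the main chain of bone and the most abundant of them, was at 3878, 1373 and 1422 FPKM against 1570, 2520 and 1983 FPKM. Its groups overlapped fully, and the log2 difference was -0.02 with an interval of -0.93 to 0.90. Quantile normalization turned this sign (0.27).

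Nerve-sheath genes were also lower beside the Nb3 alloy. Schwann cells wrap the axons of peripheral nerves, which run through jaw bone and ligament. S100b, a calcium-binding protein of these cells, was measured at 4.33, 4.75 and 5.29 FPKM beside the Nb3 alloy and at 11.7, 14.2 and 10.8 FPKM beside cpTi. The groups lay well apart, with a log2 difference of -1.19 (SE 0.23, adjusted p = 0.656 by limma). Sox10, the transcription factor that defines the lineage, was at 0.514, 1.16 and 1.25 FPKM against 3.46, 5.99 and 2.86 FPKM, and the receptors Erbb3 and Ngfr were lower without overlap as well (log2 differences -1.11 and -1.12).

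Of 18 Schwann cell and nerve genes tested 16 were below 0, 8 were lower without overlap (4.41% over all genes), and the median was -0.73. With a pseudocount of 0.1 that median was -1.29, and limma-voom put it at -1.37. The list deviated from the mean of the 6 libraries by -0.46, -0.41 and -0.44 in the Nb3-alloy replicates. In the cpTi replicates it deviated by 0.43, 0.78 and -0.13, so that replicate 3 lay nearer to the Nb3-alloy libraries than to the other cpTi libraries. Nefl and Nefm, neurofilament chains of axons, did not reach the level needed for testing.

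Osteocyte genes leaned the other way. Sost (sclerostin; ENSRNOG00000071073, chromosome 10, 86911517 to 86915561) was at 947, 1143 and 295 FPKM beside the Nb3 alloy and at 236, 93.0 and 390 FPKM beside cpTi. Nb3-alloy replicates 1 and 2 were the highest of the 6, but replicate 3 lay below cpTi replicate 3. The log2 difference was 1.73 (SE 0.74, 95% interval 0.10 to 3.37, adjusted p = 1 by limma).

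Matrix proteins of osteocytes gave a like order. Mepe, a phosphoglycoprotein that regulates mineralisation, was at 732, 457 and 218 FPKM against 149, 100.1 and 230 FPKM. Dmp1, which osteocytes use to control mineral and phosphate, was at 450, 298 and 157 FPKM against 112, 113 and 153 FPKM, and its groups did not overlap, by the narrow gap between the lowest Nb3-alloy and the highest cpTi library. Their log2 differences were 1.46 and 1.14. Phex, an endopeptidase of the same pathway, was at 66.7, 59.2 and 30.9 FPKM against 21.1, 10.3 and 41.8 FPKM. The transcription factor Irx5 (log2 difference 1.17) and Pdpn, a membrane protein of young osteocytes (0.81), overlapped between groups too, and in Phex and Pdpn the overlap came from Nb3-alloy replicate 3 lying below cpTi replicate 3.

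Cd44, the hyaluronan receptor found on osteocytes and on many leukocytes, had the smallest p of the osteocyte list. It stood at 82.2, 73.9 and 61.4 FPKM against 46.0, 29.3 and 48.7 FPKM, without overlap (log2 difference 0.82, SE 0.21, unadjusted p = 0.0028 and adjusted p = 1 by limma). Of 13 osteocyte genes 11 were above 0, with a median of 0.81 (0.52 without Nb3-alloy replicate 1), and 6 had an unadjusted p under 0.05. The list's deviation from the mean of the 6 libraries was 1.02, 0.45 and -0.20 in the Nb3-alloy replicates and -0.64, -0.71 and -0.09 in the cpTi replicates. Replicate 3 of each material therefore sat near the middle. Wide intervals went with this spread, and only 2 of the 13 lay within 1 on the log2 scale.

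**Figure D2:**
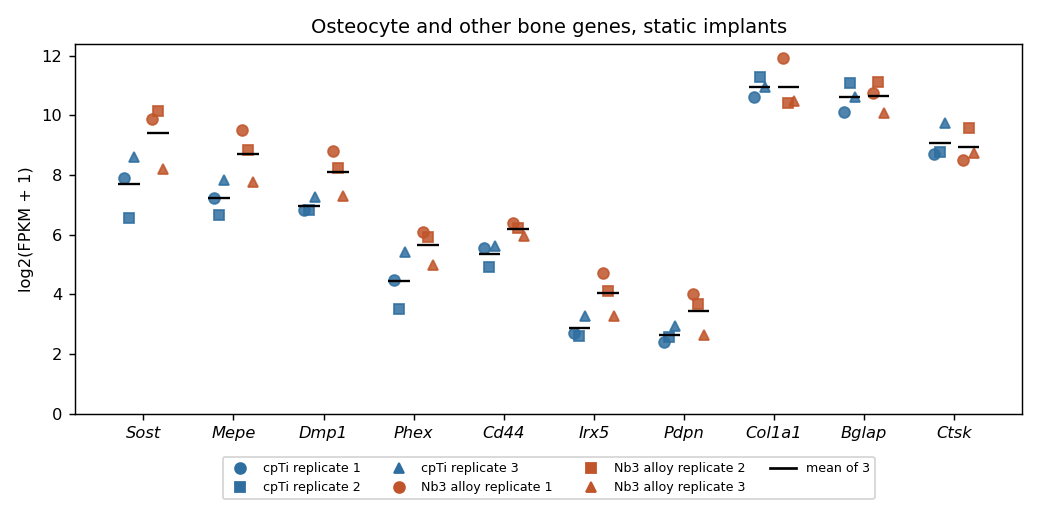
Level of 7 osteocyte genes and of Col1a1, Bglap and Ctsk in the 6 static libraries, as log2(FPKM + 1) on the vertical axis. Each point is a library, with blue for cpTi and orange for the Nb3 alloy, marker shape for the replicate and a black bar for the mean of 3. Triangles (replicate 3) of the materials lie close together for the osteocyte genes, while circles and squares of the Nb3 alloy lie higher.

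Osteoblast genes did not separate the materials. Runx2 and Sp7, the transcription factors of the lineage, differed by 0.02 and 0.34 on the log2 scale, with intervals of -0.68 to 0.72 and -0.75 to 1.42. Alpl, the alkaline phosphatase of mineralising cells, differed by 0.26, Bglap (osteocalcin) by 0.04 and Spp1 (osteopontin) by -0.03. All 5 genes overlapped between groups. Of 21 osteoblast and mineral matrix genes 14 were above 0, with a median of 0.23 (0.02 without Nb3-alloy replicate 1), and no member separated the groups fully. Intervals of these genes were wide, so that differences of 1 on the log2 scale remain possible for Sp7, Alpl and Bglap.

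Among osteoclast genes Src, the kinase needed for the ruffled border, was higher without overlap, at 19.1, 21.8 and 20.3 FPKM against 16.9, 15.3 and 17.2 FPKM (log2 difference 0.29). Acp5, the tartrate-resistant phosphatase, and Ctsk, the collagen-cutting cathepsin, overlapped and differed by 0.27 and -0.14. The list of 20 had a median of 0.10. Tnfsf11, which encodes RANKL, was at 2.99, 0.725 and 1.52 FPKM against 1.08, 2.22 and 1.65 FPKM. Tnfrsf11b, which encodes osteoprotegerin, was at 10.97, 3.95 and 2.94 FPKM against 1.69, 2.58 and 3.55 FPKM, with Nb3-alloy replicate 1 far above the rest. The log2 differences were -0.01 and 0.81, with intervals of -0.85 to 0.83 and -0.16 to 1.77.

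Signals that osteoblasts and osteocytes answer to gave no called member. Wnt5b, a Wnt ligand, was higher without overlap at 8.37, 6.52 and 6.36 FPKM against 4.33, 4.24 and 3.89 FPKM. The Wnt receptor Fzd2 and the antagonists Dkk2 and Sfrp2 were lower without overlap (log2 differences -0.86, -0.57 and -1.87). Sfrp2, with the largest difference of the list, was at 9.71, 17.5 and 12.3 FPKM against 41.0, 72.0 and 40.8 FPKM. Dkk2 stayed below 1 FPKM in all 6 libraries. Of 25 Wnt genes 18 were below 0 (median -0.10), while 1 was higher and 3 were lower without overlap, against 2.88% and 4.41% of all genes. Tgfb1, stored in bone matrix and released on resorption, was higher without overlap at 146, 128 and 145 FPKM against 121, 97.4 and 98.6 FPKM. Tgfb2 was at 12.2, 10.01 and 3.51 FPKM against 2.19, 3.57 and 5.11 FPKM, with replicate 3 again out of order. Of 32 genes of the BMP and TGF-beta pathway 21 were above 0 (median 0.09). Higher without overlap were 2, Tgfb1 and Ltbp1, against 2.88% of all genes. Pthlh, the parathyroid hormone-related ligand, was at 0, 0 and 0.131 FPKM against 0.761, 4.59 and 0.873 FPKM.

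Platelet-forming cells gave the other group with higher values. Gp1ba, a chain of the platelet receptor for von Willebrand factor (ENSRNOG00000025959, chromosome 10, 55352899 to 55356774), was at 7.02, 9.15 and 9.37 FPKM beside the Nb3 alloy and at 5.998, 2.75 and 4.58 FPKM beside cpTi. The groups did not overlap, and the log2 difference was 0.84 (SE 0.22, adjusted p = 1 by limma). The integrin chain Itga2b stood at 25.4, 36.8 and 34.5 FPKM against 24.6, 15.3 and 21.0 FPKM. Of 15 megakaryocyte and platelet genes 14 were above 0 (median 0.66, or 0.40 without cpTi replicate 2). Higher without overlap were 4, against 2.88% of all genes. Replicate 2 of cpTi was the lowest library (-0.91), while Nb3-alloy replicate 1 (-0.05) and cpTi replicate 1 (0.06) had about the same level. The abundant platelet chemokines Pf4 and Ppbp overlapped between groups.

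Other marrow lineages differed little. Of 24 erythroid genes 23 were below 0, but the median was only -0.28 (-0.08 without Nb3-alloy replicate 2). Lower without overlap was 1, the globin gene Hbb-b1, against 4.41% of all genes. It was at 1795, 1760 and 2271 FPKM against 2321, 2854 and 2320 FPKM. The red cell transcription factor Klf1 overlapped, at 92.9, 103 and 113 FPKM against 142, 146 and 95.2 FPKM. Of 20 neutrophil granule genes 18 were above 0 (median 0.29). That sign rested on Nb3-alloy replicate 3, which deviated by 0.70 from the mean of the 6 libraries and without which the median was -0.07. Mpo, the myeloperoxidase of granules, was at 566, 530 and 1117 FPKM against 726, 530 and 544 FPKM, and without that replicate its difference changed from 0.23 to -0.12. Elane, a granule protease, and S100a8, a calcium-binding protein of mature neutrophils, were also highest in that library.

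Macrophage genes were above 0 in 20 of 21 cases (median 0.33), but the median was 0.03 without cpTi replicate 2. That library deviated from the mean of the 6 by -0.72, while cpTi replicates 1 and 3 (0.07 and 0.26) lay at the level of the Nb3-alloy libraries (0.05, 0.05 and 0.31). Among these genes Cd68, a lysosomal membrane protein, was higher without overlap at 74.4, 75.6 and 79.7 FPKM against 54.7, 39.8 and 71.6 FPKM. Lysosomal enzymes, which macrophages and osteoclasts hold in quantity, were above 0 in 23 of 27 cases (median 0.17, or 0.03 without cpTi replicate 2), and 26 of these intervals stayed within 1 on the log2 scale. Cxcl12, the marrow chemokine that retains blood stem cells, was at 379, 314 and 393 FPKM against 311, 166 and 292 FPKM. Its groups were separate by a narrow gap (log2 difference 0.54).

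Of the B lineage, Vpreb1, a chain of the pre-B cell receptor, stood out. It was at 4.18, 5.03 and 8.10 FPKM beside the Nb3 alloy and at 17.9, 11.3 and 31.5 FPKM beside cpTi, without overlap (log2 difference -1.58, SE 0.46, adjusted p = 1 by limma). Of the list, 20 of 26 genes were below 0 (median -0.19, or -0.05 without Nb3-alloy replicate 1). T and NK cell genes had a median of -0.12 over 23 genes.

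Genes of cell division differed little between the materials. Mki67, present in dividing cells only, was at 121, 102 and 154 FPKM against 137, 129 and 114 FPKM, a log2 difference of -0.03 with an interval of -0.49 to 0.44. All 34 DNA replication genes and all 30 mitosis genes had intervals within 1 on the log2 scale, with medians of 0.03 each.

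Inflammatory genes gave no called member. Of 28 cytokines and chemokines tested 18 were below 0 (median -0.14), 1 was higher and 3 were lower without overlap, against 2.88% and 4.41% of all genes. Il1b was at 5.45, 10.53 and 11.6 FPKM against 9.25, 7.49 and 7.40 FPKM, and Ccl2 at 1.16, 2.61 and 1.73 FPKM against 2.43, 1.42 and 3.80 FPKM, so that groups overlapped for both. Cx3cl1, a membrane-bound chemokine, was lower without overlap (log2 difference -0.45). Toll-like receptor, NF-kappaB and inflammasome genes had a median of 0.10 over 26 genes and none without overlap. Oas1a, an interferon-stimulated antiviral enzyme, was higher without overlap at 5.11, 4.13 and 4.28 FPKM against 2.81, 1.45 and 3.80 FPKM, while the 26 interferon-stimulated genes had a median of 0.03.

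The alloy contains copper, so genes of metal handling were read in full. Cells sense an excess of zinc, copper or cadmium through the transcription factor Mtf1, which binds metal response elements in the promoters of metallothioneins, small proteins that hold the metal, and of the zinc exporter Slc30a1. The following stretches are shown because they hold the elements through which these genes would answer to metal. Each is the 250 bases before the start of the gene in RefSeq (build GRCr8), on the coding strand from 5′ to 3′, with matches to TGCACNC or TGCGCNC on either strand in capitals.
Mt1 (chr19:10832976-10833225, minus strand): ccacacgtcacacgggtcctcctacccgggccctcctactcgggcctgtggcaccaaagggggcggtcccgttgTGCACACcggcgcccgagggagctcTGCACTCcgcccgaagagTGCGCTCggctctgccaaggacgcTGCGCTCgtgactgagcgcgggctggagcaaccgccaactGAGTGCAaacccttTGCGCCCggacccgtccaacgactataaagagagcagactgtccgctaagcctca
Mt2A (chr19:10838709-10838958, minus strand): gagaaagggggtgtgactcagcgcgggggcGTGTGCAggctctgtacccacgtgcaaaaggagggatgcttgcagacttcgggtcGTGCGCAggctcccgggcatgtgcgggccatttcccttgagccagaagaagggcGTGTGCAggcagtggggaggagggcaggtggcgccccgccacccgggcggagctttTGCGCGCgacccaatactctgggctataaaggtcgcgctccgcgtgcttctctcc
Slc30a1 (chr13:106021769-106022018, plus strand): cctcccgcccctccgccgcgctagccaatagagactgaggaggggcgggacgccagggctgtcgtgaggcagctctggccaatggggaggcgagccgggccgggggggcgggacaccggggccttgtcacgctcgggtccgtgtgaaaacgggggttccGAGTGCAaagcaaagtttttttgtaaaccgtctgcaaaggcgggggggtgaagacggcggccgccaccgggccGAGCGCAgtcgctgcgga

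Mt1 has 6 matches, Mt2A has 4 and Slc30a1 has 2. Among 33469 RefSeq promoter windows of this length 20.6% hold at least 1 match and 4.90% at least 2. These are matches of letters and not measured binding. The deposited table describes 2 genes as metallothionein 1. The one named AC128848.1 lies on chromosome 19 (10826032 to 10827049) beside Mt2A and Mt3, as the RefSeq gene Mt1 does, and the one with the symbol Mt1 lies on chromosome 17 (74786654 to 74787135).

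None of these genes separated the materials. AC128848.1 was at 69.5, 81.8 and 121 FPKM beside the Nb3 alloy and at 81.3, 84.7 and 64.4 FPKM beside cpTi, a log2 difference of 0.21 with an interval of -0.46 to 0.88. Mt2A was at 22.9, 21.9 and 38.4 FPKM against 30.9, 28.7 and 36.6 FPKM (-0.24, interval -0.87 to 0.39). Slc30a1 was at 15.7, 15.0 and 21.1 FPKM against 17.0, 15.6 and 17.8 FPKM (0.03, interval -0.35 to 0.40). In all 3 the groups overlapped and Nb3-alloy replicate 3 was the highest library. The gene with the symbol Mt1 differed by 0.03 (interval -0.53 to 0.60). Metallothioneins share sequence, so how reads were divided among them is uncertain.

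Copper transport was equally flat. Slc31a1, the copper importer of the cell membrane, was at 9.34, 9.32 and 12.3 FPKM against 9.45, 9.65 and 11.98 FPKM, and its log2 difference of -0.01 had the narrowest interval of the metal panel (-0.29 to 0.28). The copper-pumping ATPases Atp7a and Atp7b differed by 0.12 and 0.11, Cp (ceruloplasmin) by -0.08 and the copper and zinc enzyme Sod1 by 0.08. Of 26 copper, zinc and metallothionein genes 24 had intervals within 1 on the log2 scale, and the median was 0.04. Of the 26 genes 1 was higher without overlap, near the share of 2.88% over all genes, so this count is not a result about metal handling. Slc39a8, an importer of zinc and manganese, was at 24.7, 22.7 and 22.1 FPKM against 17.9, 14.4 and 18.8 FPKM (log2 difference 0.43, interval 0.10 to 0.76, unadjusted p = 0.0163 and adjusted p = 1 by limma).

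**Figure D3:**
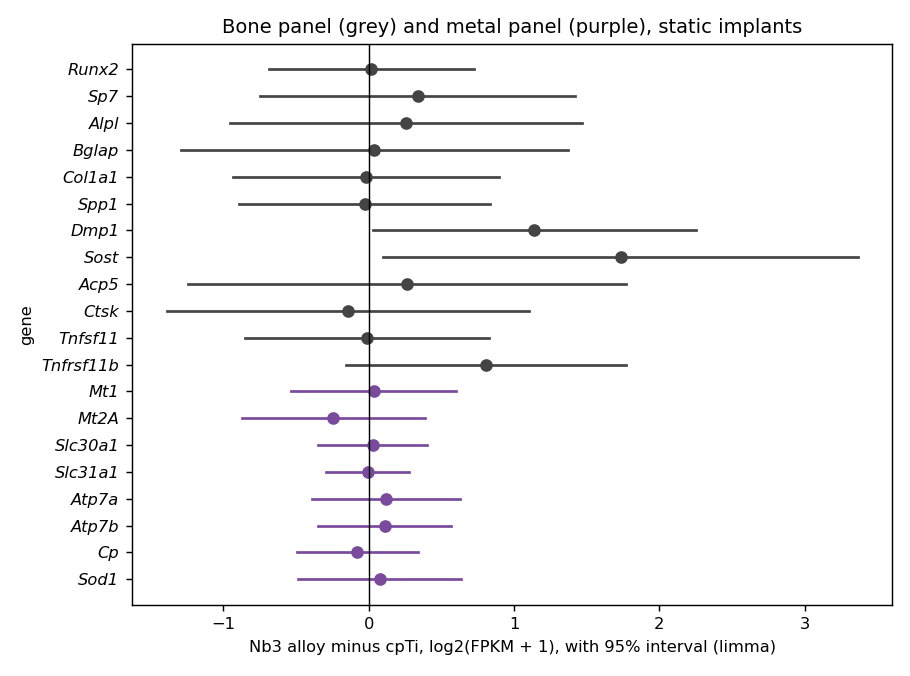
Difference between the materials for 12 bone genes (grey) and 8 metal-handling genes (purple), Nb3 alloy minus cpTi on the log2(FPKM + 1) scale, with the 95% interval of the limma fit as a line. Zero is the vertical line. Mt1 is the gene with that symbol on chromosome 17. Intervals of the metal genes stay within 1 of 0, those of most bone genes reach past 1, and those of Sost and Dmp1 lie above 0 before adjustment.

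Matrix proteases were mostly lower beside the Nb3 alloy, while mechanical signalling gave medians near 0. Of 24 matrix proteases and inhibitors 16 were below 0 (median -0.26), with 4 lower without overlap (4.41% over all genes). Leaving out cpTi replicate 3 put that median at -0.14. Of 20 genes that crosslink or modify collagen 9 were below 0 (median 0.07). Mechanosensing channels and junctions had a median of 0.03 over 25 genes, targets and partners of YAP and TAZ, the transcription co-factors that answer to stretch, -0.03 over 24, and immediate early genes -0.04 over 24. Of 13 genes encoded by the mitochondrial genome 12 were below 0 (median -0.28, or -0.10 without cpTi replicate 3), and mitochondrial reads took 4.64% ± 0.508 beside the Nb3 alloy and 5.63% ± 1.16 beside cpTi (SD, n = 3; exact permutation test, two-sided p = 0.2).

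Stress responses had medians near that of all genes. They were -0.08 over 29 antioxidant genes, -0.10 over 23 genes of amino acid and endoplasmic reticulum stress, 0.09 over 23 genes of apoptosis and p53, and 0.17 over 26 genes of hypoxia and glycolysis (0.08 without Nb3-alloy replicate 3). Heat shock genes had a median of -0.01, and 3 of 22 were lower without overlap, against 4.41% of all genes. Among these were Cryab and, by a narrow gap, Hspb8, 2 small chaperones found in muscle. Cryab was at 4.44, 3.22 and 5.02 FPKM against 7.45, 9.26 and 7.52 FPKM, and Hspb8 at 1.01, 1.92 and 1.27 FPKM against 1.94, 8.44 and 6.03 FPKM.

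**Figure D4:**
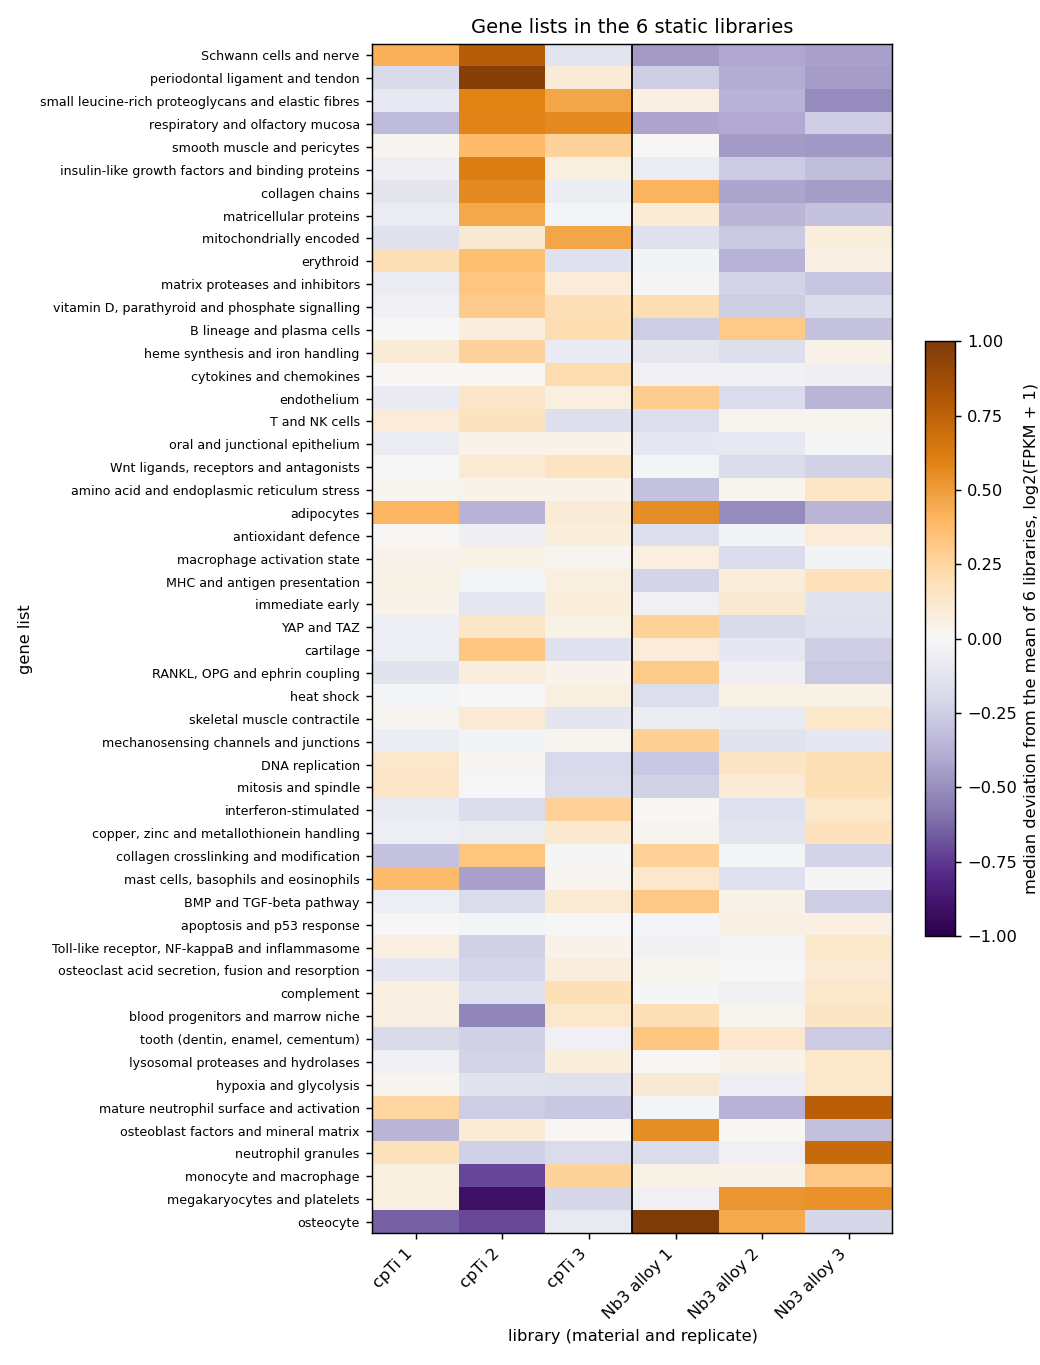
Median deviation of each of 52 gene lists from the mean of the 6 static libraries, in log2(FPKM + 1), with lists as rows ordered by their difference between the materials and libraries as columns. Orange is higher and purple is lower. Schwann cell and ligament lists are at the top (lower beside the Nb3 alloy), megakaryocyte and osteocyte lists at the bottom, and within most rows the libraries of one material differ among themselves.

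Genes of other tissues varied by library among the static cpTi samples. Obp1f, an odorant-binding protein of nasal glands, was at 1.02, 0.462 and 15.7 FPKM beside the Nb3 alloy and at 19.3, 132 and 4554 FPKM beside cpTi. Bpifa1, a secreted airway protein, and Pigr, which carries antibodies across epithelia, were above 75 FPKM in cpTi replicates 2 and 3 and at or below 1.08 FPKM in the other 4 libraries. Epcam, an epithelial surface protein, was at 4.96 and 6.65 FPKM in those 2 libraries and below 1 FPKM in the rest. Summed over 18 respiratory and olfactory genes in the table, the level ranged from 7.15 to 24.2 FPKM in the Nb3-alloy libraries and from 27.0 to 4962 FPKM in the cpTi libraries. Skeletal muscle genes summed to 51.8 to 64.3 FPKM beside the Nb3 alloy and 52.6 to 70.3 FPKM beside cpTi, and oral epithelium genes to 55.8 to 83.8 FPKM and 43.8 to 124 FPKM. The part of nasal or gland tissue in the differences between the groups was not tested.

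Leaving out cpTi replicate 1 brought 4 calls (A2ml1, Csap1, AABR07005821.1 and AABR07014573.2), each at or above 29.4 FPKM in the cpTi replicates 2 and 3 and below 0.2 FPKM elsewhere. In a fit that also left out the loaded Nb3-alloy group the same omission brought 16 calls, all lower beside the Nb3 alloy. Among them were Bpifa1 and Cnn1 (adjusted p = 0.0415 by limma). With all 6 libraries in the fit Cnn1 was not called under any setting tried.

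Short RNAs took 12 of the 50 smallest p-values although only 407 of the genes tested were of that kind. They rest on few reads, a median of 3.33 per library, and libraries of polyadenylated RNA capture them poorly. RNaseP_nuc (ENSRNOG00000054444, chromosome 20, 46304592 to 46305062), 1 of 34 genes of the table with this name, had 2, 0 and 1 reads beside the Nb3 alloy against 22, 17 and 13 beside cpTi. The gene of the let-7d microRNA hairpin, Mirlet7d (chromosome 17, 16115893 to 16115990), had 10, 5 and 7 reads against 1 in each cpTi library, without overlap. Mir6326 had 6, 3 and 2 reads against 0 in all 3, and 1 of 7 genes named U4, for a spliceosomal RNA, had 4, 5 and 1 reads against 0. Reads assigned to Mirlet7d cover the hairpin region and do not measure the mature microRNAs.

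The mature forms of let-7d are shown because Mirlet7d had the smallest p of the named genes that were higher. They are as RefSeq gives them (GRCr8, 5′ to 3′), with bases 2 to 8, the seed that pairs with targets, in capitals.
rno-let-7d-5p (chr17:16322273-16322294): aGAGGUAGuagguugcauaguu
rno-let-7d-3p (chr17:16322327-16322348): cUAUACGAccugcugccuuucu

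Of the other genes with the smallest p among the higher ones, Pabir1, a regulator of a protein phosphatase, had nearly no spread beside the Nb3 alloy. It stood at 5.95, 5.93 and 5.94 FPKM against 3.54, 3.89 and 3.80 FPKM (log2 difference 0.55, SE 0.14). Slc35d3, a sugar transporter needed for platelet dense granules, was at 1.44, 2.07 and 3.17 FPKM against 1.10, 0.656 and 0.831 FPKM. Tchh, the hair follicle protein trichohyalin, was at 1.99, 2.30 and 1.64 FPKM against 0.548, 0.998 and 0.584 FPKM. Absence of overlap was a condition for choosing these 3 genes, and 2.88% of all genes were higher without overlap. None of the 3 was called.

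The static difference was also set against the difference under loading, which uses none of the same libraries. The interaction, static difference minus loaded difference, was called for 3089 genes (20.2%), 1804 above and 1285 below 0. Scaling by total reads moved this split to 2380 and 845, and limma-voom moved it to 2360 and 903. These scalings put the median interaction over all genes at 0.18 and 0.13, against 0.02 here. Libraries from loaded Nb3 alloy correlated at only 0.731 to 0.866 with the other 9 and held 11.3% to 24.3% mitochondrial reads, against 4.31% to 6.86% in the 6 static libraries, and their part in the interaction was not tested.

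The contractile and elastic genes that were lower beside the static alloy stood higher beside the loaded alloy. Cnn1 differed by -1.57 without and by 1.17 with loading (interaction -2.74, adjusted p = 0.000226 by limma), and loaded samples had 4.64 ± 1.39 FPKM beside the Nb3 alloy and 1.47 ± 0.359 FPKM beside cpTi (SD, n = 3). Eln differed by -1.68 without and by 2.11 with loading (interaction -3.79, adjusted p = 0.000125 by limma). Acta2, Tagln and Igfbp6 had opposite signs in the 2 states as well (interaction -3.74, -3.96 and -3.84). These genes were chosen for a small static p, and the interaction contains the static difference. Its size and p-value for them are therefore not independent of that choice and may be overstated. Of the lists, 9 of 18 smooth muscle, 15 of 18 Schwann cell and 12 of 21 collagen genes had a called interaction, against 20.2% of all genes. This was not particular to them. All 24 erythroid, all 30 mitosis and all 13 mitochondrially encoded genes had a called interaction as well.

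Osteocyte genes had none called among 13, and Sost differed by 1.73 without and by 0.10 with loading (interaction 1.64, adjusted p = 0.303 by limma). Marrow genes gave the largest positive values. Mpo differed by 0.23 without and by -8.20 with loading, Mki67 by -0.03 and -4.62, and Gp1ba by 0.84 and -2.69. Mt2A differed by -0.24 and 1.54 (interaction -1.78, adjusted p = 0.0117 by limma), and AC128848.1 by 0.21 and 0.11. Vpreb1 had about the same difference in both states, -1.58 and -1.53 (interaction -0.05, adjusted p = 0.972 by limma).

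**Figure D5:**
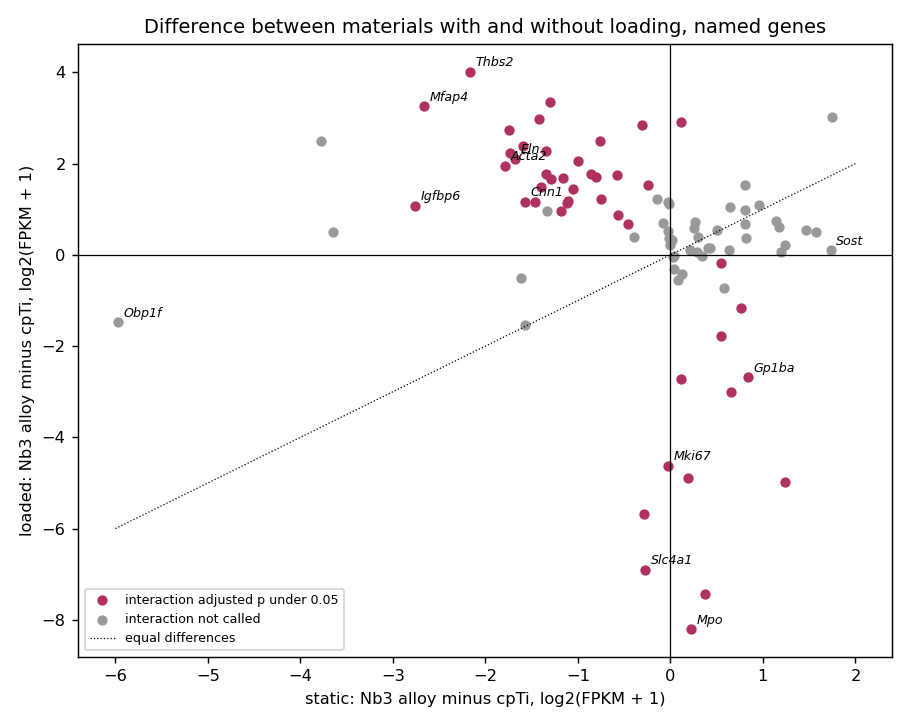
Difference between the materials without loading (horizontal axis) and with loading (vertical axis) for 90 genes named in the text, Nb3 alloy minus cpTi on the log2(FPKM + 1) scale. Red points have an interaction adjusted p under 0.05, grey points do not, and the dotted line marks equal differences. Contractile and elastic genes such as Cnn1 and Eln sit at the upper left, and marrow genes such as Mpo, Slc4a1 and Mki67 sit near 0 on the horizontal axis and far below 0 on the vertical axis.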

How the data were processed

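The authors deposited 1 table of FPKM for 33801 genes, recognised as FPKM from its values. Tools named in the submitters' processing notes, with no roles, are fastp, CASAVA 1.8, featureCounts 1.5.0-p3, HISAT2 2.0.5 as well as DESeq2 1.20.0. The sources used here give no genome build, annotation or strand setting, so reads of overlapping and antisense genes may not be separable. FPKM times gene length gave whole reads for 100% of values (within 0.01 read), 12.9 to 15.3 M per static library, used for depth, limma-voom and scaling alternatives.

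Genes at 1 FPKM in at least 3 of 12 libraries were analysed as log2(FPKM + 1), which understates differences of low genes, with limma 3.58.1 (R 4.3.3, statmod 1.5.0), 1 mean per group, trended and robust moderation, 8 residual degrees of freedom and Benjamini-Hochberg adjustment, called at 0.05. The design foresaw counts, and its rule for normalized values was followed. The procedure was tested on simulated data. Some items are not reported here.

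The comparison, members and 52 lists (976 different genes tested) were chosen with earlier results of these data known. Because nothing was called, the naming rule gave in each direction the 8 genes with the smallest p among those with a symbol, at least 1 FPKM in the higher group and no overlap. It added the 2 smallest p of each list and panels of 12 bone and 8 metal genes, and the text takes its genes from these. Others (such as Myh11, Actg2, Mgp, Mfap4, Sfrp2, Itga2b, Mki67, AC128848.1 and the secretory genes) were named after their values were seen. Plots used matplotlib 3.10.9, exact tests scipy 1.17.1 and tables pandas 2.3.3 with numpy 2.4.6 under Python 3.11.15. Alternatives are in the closing section. Leaving out each static library from a fit of 9 libraries was added after seeing the data.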

Additional observations from a re-analysis of the deposited data

Results flagged for a closer look

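Of 90 genes named in the report and followed here, 45 had a called interaction of material and loading (limma, adjusted p under 0.05), against 20.2% of all genes tested. Many were named for their static difference or after their values were seen. The interaction contains that difference, so the larger share is not a result about these genes. The values are the static minus the loaded difference on the log2(FPKM + 1) scale, 13 above 0 and 32 below 0. They describe 2 pairs of groups with no library in common, and the loaded Nb3-alloy libraries had few marrow transcripts and many mitochondrial reads, whose part was not tested.

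Smooth muscle and vessel genes were below 0: Cnn1 (-2.74), Tagln (-3.96), Acta2 (-3.74), Myh11 (-2.87), Actg2 (-3.99), Rgs5 (-2.34), Cav1 (-3.06), Cryab (-2.51) and Hspb8 (-2.96). Elastic, ligament and matrix genes were below 0: Eln (-3.79), Mgp (-4.48), Mfap4 (-5.92), Loxl1 (-1.98), Fmod (-4.66), Thbs2 (-6.18), Tnmd (-3.27), Col14a1 (-2.50), Col8a1 (-2.62) and Ccn3 (-4.40). The same sign held for nerve-sheath genes, S100b (-2.14), Sox10 (-3.11), Erbb3 (-2.29) and Ngfr (-2.26), and for signalling and inflammatory genes, Igfbp6 (-3.84), Tcim (-2.86), Dkk2 (-1.43), Fzd2 (-2.63), Pthlh (-3.61), Cx3cl1 (-1.14), Ccl2 (-3.15) and Il1b (-2.80). Mt2A was at -1.78.

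Values above 0 belonged to platelet-forming cells, Gp1ba (3.53), Itga2b (3.66), Ppbp (6.21) and Slc35d3 (1.92), to other marrow genes, Mpo (8.43), Elane (7.80), S100a8 (5.07), Slc4a1 (6.63), Klf1 (5.39), Mki67 (4.59) and Cxcl12 (2.32), and to Atp7b (2.84) and Pabir1 (0.73).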

How the results depend on the processing

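The static comparison was refitted 23 ways, and 20 gave 0 calls, as did a further rule of at least 1 on the log2 scale. Without a filter on low values 1 gene was called (AC126900.1, 0.88 higher, at 0.842, 0.761 and 0.925 FPKM beside the Nb3 alloy and 0 in all cpTi libraries). Leaving out 1 static library gave 0 to 16 calls, above 0 only without cpTi replicate 1 (4 with all groups in the fit, 16 without the loaded Nb3-alloy group), all lower, and 0 to 2 calls among list members (Cnn1 and Bpifa1). Genes at an unadjusted p under 0.05 ranged from 243 (without cpTi replicate 2) to 911 (without Nb3-alloy replicate 1, 9 libraries). Calls of the interaction ranged from 2018 (without Nb3-alloy replicate 3) to 2969 when 1 static library was left out. Deviations of same-numbered replicates correlated at -0.05, 0.05 and -0.06 between the materials, and those of other numbers at -0.11 to 0.15. The labels give no pairing, and these values cannot settle whether samples shared a rat or a batch. The fit with the replicate number as a block gave 0 static calls (466 genes at an unadjusted p under 0.05, smallest adjusted p 0.441) and 2608 interaction calls.

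Medians of 30 of the 52 lists kept their sign under each of 17 settings (leave-outs from the fit of 9 libraries aside). Leaving out 1 library moved the osteocyte median between 0.52 and 1.13, megakaryocytes between 0.40 and 0.96, smooth muscle between -0.63 and -0.34, Schwann cells between -1.03 and -0.59, collagen chains between -0.50 and 0.01, macrophages between 0.03 and 0.53, and neutrophil granules between -0.07 and 0.46. Genes near 0 turned sign. Quantile normalization gave 0.27 for Col1a1 and 0.064 for Tnfsf11, and Slc31a1 was at 0.0074 with TMM, 0.0030 with total reads and 0.0037 with limma-voom. With 1 library left out the log2 difference ran from -0.17 to 0.13 for Runx2, -0.21 to 0.33 for Bglap, -0.51 to 0.24 for Col1a1, -0.42 to 0.26 for Spp1, -0.050 to 0.44 for Acp5, -0.46 to 0.19 for Ctsk and -0.32 to 0.28 for Tnfsf11. For marrow and inflammatory genes it ran from -0.12 to 0.42 for Mpo, -0.28 to 0.65 for S100a8, -0.48 to 0.023 for Slc4a1, -0.18 to 0.11 for Mki67 and -0.063 to 0.42 for Il1b, and for Myl9 from -0.10 to 0.054. For metal genes it ran from -0.23 to 0.22 for Mt1, -0.016 to 0.38 for AC128848.1, -0.12 to 0.12 for Slc30a1, -0.13 to 0.093 for Slc31a1, -0.060 to 0.32 for Atp7a, -0.058 to 0.22 for Atp7b, -0.21 to 0.15 for Cp and -0.15 to 0.41 for Sod1. The causes were not tested, and with 3 libraries a group differences within these intervals could not be seen.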
